A study of Mus musculus with 16 samples.

Results

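The genes described here are 10 regulators of the step from G1 into S phase, chosen by gene symbol: the cyclin genes Ccnd2, Ccnd3 and Ccne1, the kinase gene Cdk6, the inhibitor genes Cdkn1b, Cdkn2a and Cdkn2c, the F-box gene Skp2, the transcription factor gene E2f1 and the retinoblastoma gene Rb1. They are 10 of 55536 annotated genes in a gene table of mouse CD8+ T cells, and all 10 passed the filter on low counts that left 16650 genes for testing. The question was how their RNA, and the splicing of Skp2, differed in cells given a guide against Tardbp. The product of Tardbp is TDP-43, which binds RNA and acts in splicing and in the choice of 3′ ends.

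Both groups were OT-1 Tg C57BL/6J CD8+ T cells, which carry a receptor for the ovalbumin peptide SIINFEKL. The cells were electroporated with Cas9 and either a Control gRNA (labelled scrambled) or a Tardbp gRNA and then placed in C57BL/6J recipients. Every recipient in both groups was given the antigen together with agonist anti-OX40 and anti-41BB. Transferred cells were sorted from spleen and lymph nodes after 4 days by the labels; the study's text gives this time in one place and a slightly shorter one in another. That text also places a stimulation between purification and sequencing, which the labels do not list, so whether the levels reflect it is not known. Each group had 8 libraries, and the study describes 8 individual recipient mice, with donor cells electroporated in bulk, so the replicates share that step. The study's methods describe its OT-I mice as lacking Rag1 or Rag2 as well, and the labels name neither. Age was not given in the labels. The deposited sample sheet gives a sex for each library, with 3 M and 5 F in Control gRNA and 5 M and 3 F in Tardbp gRNA, without saying whether it is that of the donor or of the recipient. The Tardbp gRNA cells were an edited population and not a clone.

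T cells leave rest through cyclin D and its partner kinases Cdk4 and Cdk6, which phosphorylate the pocket protein Rb and so free E2F factors to switch on S-phase genes. Cyclin E with Cdk2 carries this forward. Ink4 inhibitors such as p16 and p18 block Cdk4 and Cdk6, while p27, the product of Cdkn1b, holds cyclin E complexes in check until the ubiquitin ligase SCF, guided by Skp2, marks it for destruction. Activated CD8+ T cells are among the fastest dividing cells in the adult mouse. In bulk RNA, fewer cells in a given phase and less RNA per cell cannot be told apart.

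Estimated counts per library ran from 73649630 to 93893357 (Control gRNA) and from 56016533 to 94801105 (Tardbp gRNA). Tardbp itself was at 192 ± 13.3 CPM (counts relative to the scaled total of the library; mean ± SD, n = 8) in Control gRNA and 135 ± 11.3 CPM in Tardbp gRNA, with no overlap, so that 70.1% of the RNA level remained. This RNA level does not measure the protein. By immunoblot of pooled cells given the Tardbp gRNA, the study reports that Tardbp protein was not made. All 8 CD8 T cell markers were present and higher in Tardbp gRNA, with sums of 4976 to 6022 CPM (Control gRNA) and 6900 to 8679 CPM (Tardbp gRNA). Of the markers listed for other cells, 4 of 4 tested red cell genes, 2 of 7 myeloid genes, 1 of 5 B cell genes, 1 of 3 NK cell genes and 0 of 4 CD4 T cell genes were higher and none was lower. The NK list gene called was Eomes, at 26.1 CPM in Control gRNA and 54.2 CPM in Tardbp gRNA. Ncr1 (0.774 and 1.14 CPM) and Klrb1c (0.723 and 1.32 CPM) were not called, so the NK count rests on Eomes alone. The red cell genes summed to between 0.442 and 17.4 CPM per Control gRNA library and between 9.02 and 181 CPM per Tardbp gRNA library. The deposited RNA concentration, given with no unit, spanned 34.9 to 197.1 for the Control gRNA libraries and 10.1 to 24.0 for the Tardbp gRNA libraries. The part of the marker genes in the results that follow was not tested. The concentration was entered as a covariate in a further fit, whose values stand beside the genes it changed.

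Levels are first compared between genes per unit of transcript length, as TPM, the transcript counts divided by transcript length and scaled to the same total in every library. In Control gRNA cells Ccnd3, the main D cyclin here, was highest at 554 ± 24.4 TPM, followed by Ccne1 at 108 ± 17.8 TPM and Ccnd2 at 60.6 ± 6.36 TPM. Cdkn2c, Skp2 and Cdk6 formed a middle tier at 24.7 ± 3.10, 19.3 ± 1.52 and 15.3 ± 1.76 TPM. E2f1, Cdkn1b and Rb1 followed at 5.70 ± 1.85, 4.23 ± 0.444 and 3.19 ± 0.475 TPM, and Cdkn2a was last at 0.392 ± 0.231 TPM. Within the middle tier and within the tier of E2f1, Cdkn1b and Rb1 the libraries of neighbouring genes overlapped, and between tiers they did not. The same order held for the means of Tardbp gRNA cells, where Ccnd3 was at 381 ± 43.3 TPM and Cdkn2a at 0.143 ± 0.149 TPM.

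In the comparison of the groups, 1 of the 10 genes rose (Ccnd2), 3 fell (Ccnd3, Cdk6 and Skp2) and 6 did not pass the test (Ccne1, Cdkn1b, Cdkn2a, Cdkn2c, E2f1 and Rb1). The test was the quasi-likelihood test of edgeR on the counts, two-sided, with the p-value adjusted over all 16650 genes and called under 0.05. Over all tested genes 46.7% were called, 23.5% as higher and 23.3% as lower, so a count of 4 in 10 was no more than the share of genes called at large. The 8 libraries of one group lay apart from the 8 of the other for 2 of the 10 genes, beside 16.9% of all genes. The median log2 fold change of the 10 was -0.09, beside 0.05 over all tested genes.

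**Figure D1:**
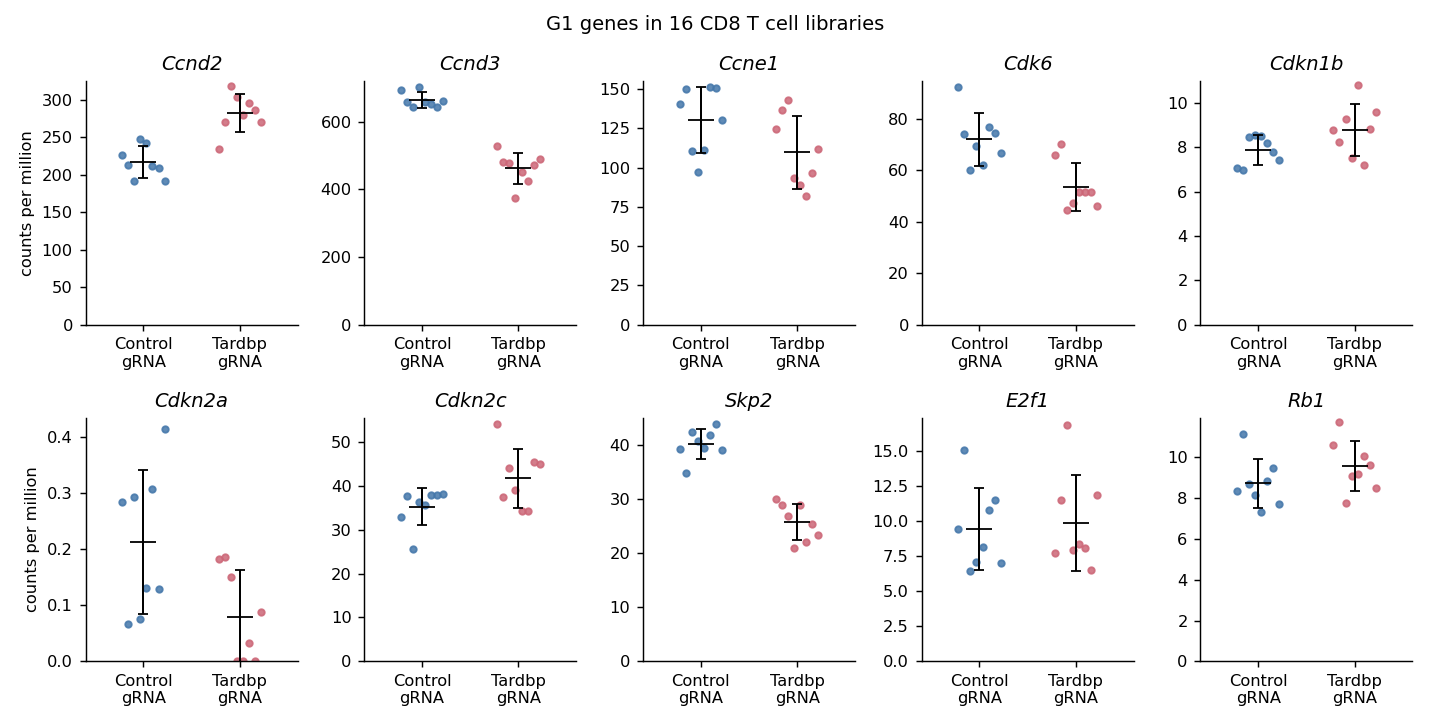
Levels in CPM (vertical axes, linear, each from 0) of the 10 G1 genes in the 8 Control gRNA and 8 Tardbp gRNA libraries; each point is a library, and the bar and whiskers are the mean and SD. Ccnd3 and Skp2 are the genes whose 2 groups do not overlap.

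Among the cyclins, the D cyclins moved in opposite directions. Ccnd2 (chr6:127125162-127152193, minus strand, mm10) had a lowest, median and highest value of 191, 213 and 248 CPM in Control gRNA and 234, 283 and 318 CPM in Tardbp gRNA. It was higher in Tardbp gRNA, with 7 of 8 libraries above every Control gRNA library, by 0.38 ± 0.064 on the log2 scale (SE; edgeR adjusted p = 8.27e-05; exact permutation p = 0.000466). Ccnd3 (chr17:47505051-47599691, plus strand), the D cyclin that made up most of the D cyclin RNA, ran from 643 over 658 to 704 CPM in Control gRNA and from 374 over 475 to 527 CPM in Tardbp gRNA. All 8 Tardbp gRNA libraries lay below every Control gRNA library, and Ccnd3 fell by 0.52 ± 0.053 on the log2 scale (edgeR adjusted p = 3.96e-07; exact permutation p = 0.000155, the smallest that 8 against 8 libraries allow).

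As a result the 2 D cyclins stood closer to each other within each Tardbp gRNA library. The ratio of Ccnd2 to Ccnd3 in TPM was 0.109 ± 0.00967 over the Control gRNA libraries and 0.199 ± 0.0335 over the Tardbp gRNA libraries. Single libraries lay between 0.0953 and 0.127 in Control gRNA and between 0.146 and 0.263 in Tardbp gRNA. Ccnd3 RNA stayed the more abundant of the pair in all 16 libraries.

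Ccne1, the gene of cyclin E1, was more variable. Its lowest, median and highest values were 97.4, 135 and 151 CPM in Control gRNA and 81.6, 104 and 143 CPM in Tardbp gRNA. The groups overlapped, and the difference of -0.25 ± 0.12 on the log2 scale (interval -0.51 to 0.02) did not pass (edgeR adjusted p = 0.107). Its value depended on which libraries were compared. Among the libraries numbered 4 to 8 the log2 difference was -0.45 (edgeR adjusted p = 0.0109), and among those numbered 1 to 3 it was -0.02 (edgeR adjusted p = 0.938). With the numbers 1 to 3 and 4 to 8 as a block Ccne1 was at -0.27 (edgeR adjusted p = 0.0442). With this block 6 of the 10 genes passed, 1 as higher and 5 as lower, beside 7930 of all tested genes. That division was seen in earlier results of these data and no label names it. Leaving out the library Control gRNA 4 or Tardbp gRNA 3 gave adjusted p-values of 0.0352 and 0.0419 in edgeR.

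Cdk6 (chr5:3341485-3531008, plus strand), a catalytic partner of the D cyclins, was at 60.1, 71.9 and 92.3 CPM (lowest, median, highest) in Control gRNA and at 44.7, 51.6 and 70.3 CPM in Tardbp gRNA. Of the 8 Tardbp gRNA libraries, 6 lay below every Control gRNA library. The log2 fold change was -0.42 ± 0.10 (edgeR adjusted p = 0.0022; exact permutation p = 0.00264). With the RNA concentration as a covariate it was -0.26 and no longer passed (edgeR adjusted p = 0.466), while Ccnd2, Ccnd3 and Skp2 still did, at 0.59, -0.47 and -0.72. Concentration split the libraries just as the groups did, since the ranges did not overlap, so this fit cannot separate concentration from the guide.

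**Figure D2:**
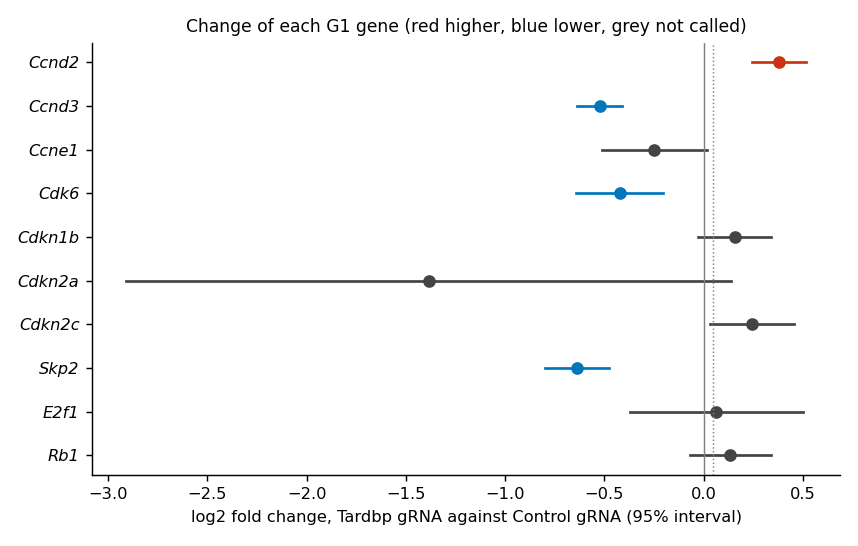
Log2 fold change of each of the 10 G1 genes in Tardbp gRNA against Control gRNA (horizontal axis; points are edgeR estimates and lines 95% intervals from the t distribution; red higher, blue lower, grey not called; the solid line is 0 and the dotted line the median of all tested genes, 0.05). Ccnd2 lies to the right of 0 and Ccnd3, Cdk6 and Skp2 to the left, while the interval of Cdkn2a is the widest.

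Of the inhibitors none passed the test. Cdkn1b, which encodes p27, was at 6.98, 7.99 and 8.57 CPM (lowest, median, highest) in Control gRNA and at 7.20, 8.80 and 10.8 CPM in Tardbp gRNA. The groups overlapped, with 5 of 8 Tardbp gRNA libraries above every Control gRNA library, and the log2 difference was 0.16 ± 0.085 (interval -0.03 to 0.34; edgeR adjusted p = 0.146). Cdkn2c, which encodes the Ink4 inhibitor p18, was at 25.7, 37.0 and 38.1 CPM in Control gRNA and at 34.1, 41.6 and 54.0 CPM in Tardbp gRNA. Its log2 difference of 0.24 ± 0.098 fell just short of the threshold (interval 0.03 to 0.45; edgeR adjusted p = 0.0502). Scaled by library totals alone, both passed as higher, Cdkn1b at 0.23 (edgeR adjusted p = 0.0332) and Cdkn2c at 0.31 (edgeR adjusted p = 0.015). Cdkn2c also passed on leaving out Tardbp gRNA 2 or Tardbp gRNA 6, at adjusted p = 0.0452 and 0.0487 in edgeR.

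Cdkn2a, the locus of p16 and p19Arf, was barely detected, with 189 estimated counts over the 16 libraries. Its lowest, median and highest values were 0.0669, 0.208 and 0.414 CPM in Control gRNA and 0, 0.061 and 0.186 CPM in Tardbp gRNA. In 3 Tardbp gRNA libraries the count was 0, which allows up to 3 counts, or 0.0316 to 0.0492 CPM. The log2 difference was -1.39 ± 0.71 (edgeR adjusted p = 0.12), with 4 of 8 Tardbp gRNA libraries below every Control gRNA library. With the libraries numbered 1 to 3 and 4 to 8 as a block the value was -1.86 (edgeR adjusted p = 0.0417), and among those numbered 1 to 3 alone it was -0.33 (edgeR adjusted p = 0.808). By transcript, Cdkn2a-202 held 171 of these counts and Cdkn2a-201 held 18. Neither passed the transcript filter, so neither was tested.

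Skp2 (chr15:9111985-9155425, minus strand), the F-box protein that brings p27 to the SCF ligase, had the steepest fall among the genes that passed. Its lowest, median and highest values were 34.8, 40.1 and 43.9 CPM in Control gRNA and 21.1, 26.1 and 30.05 CPM in Tardbp gRNA. The groups did not overlap, and the log2 fold change was -0.64 ± 0.075 (edgeR adjusted p = 1.95e-06; exact permutation p = 0.000155), which left 64.3% of the Control gRNA mean. It passed among the libraries numbered 1 to 3 and among those numbered 4 to 8, at -0.47 and -0.77. The ratio of Cdkn1b to Skp2 RNA in TPM was 0.219 ± 0.0141 in Control gRNA and 0.393 ± 0.0545 in Tardbp gRNA. Cdkn1b alone did not pass the test, so this ratio is not independent of the fall of Skp2, and it does not measure either protein. No Tardbp gRNA library, the lowest at 0.311, reached down to the highest Control gRNA library at 0.239.

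**Figure D3:**
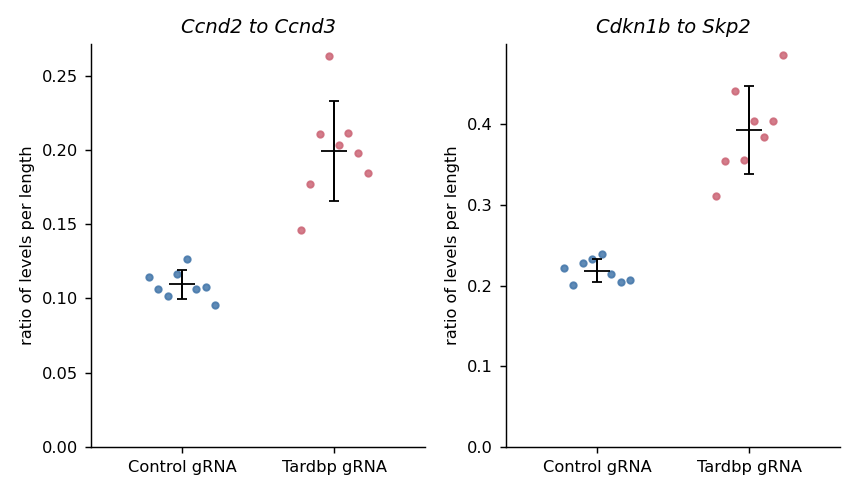
Ratio of RNA levels per length within each library (vertical axes, from 0) for Ccnd2 to Ccnd3 and for Cdkn1b to Skp2. Points are libraries, and the bar and whiskers are the mean and SD of 8. Both ratios lie higher in all 8 Tardbp gRNA libraries than in any Control gRNA library.

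The 2 genes that complete the pathway downstream of these kinases showed no passing difference. E2f1, an activating E2F, was at 6.45, 8.80 and 15.1 CPM (lowest, median, highest) in Control gRNA and at 6.50, 8.26 and 16.9 CPM in Tardbp gRNA. The log2 difference was 0.06 ± 0.20 (interval -0.37 to 0.50; edgeR adjusted p = 0.821). Its sign was not stable: it became -0.063 among the libraries numbered 4 to 8 and -0.090 without the library Tardbp gRNA 3, the highest of its group. Rb1 was at 7.33, 8.55 and 11.2 CPM in Control gRNA and at 7.75, 9.40 and 11.7 CPM in Tardbp gRNA, a log2 difference of 0.13 ± 0.095 (interval -0.07 to 0.34; edgeR adjusted p = 0.265). For both genes the groups overlapped nearly throughout.

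Libraries also varied within each group, and the genes that followed each G1 gene most closely, up to 3, were taken from log2 CPM centred on the group mean, over the same 16 libraries. These values are descriptions, and they share library and depth. Skp2 ran with Zbtb14 (r = 0.95), Mcm3 (r = 0.88) and Rrm2 (r = 0.88), of which Mcm3 encodes a subunit of the replicative helicase and Rrm2 a subunit of ribonucleotide reductase. Ccnd3 ran with Mcm5 (r = 0.81), Gm7985 (r = 0.80) and the condensin gene Smc2 (r = 0.79), while Ccnd2 ran with Psme2b, Lmna and Iffo2 (r = 0.93, 0.89 and 0.86). For E2f1 the closest were Ythdf1, Ankrd13a and Otulin (r = 0.96 each), and for Ccne1 they were Get4, Nudt4 and Atp2a2 (r = 0.93, 0.92 and 0.92). Cdk6 ran with Pds5a, Larp1 and Ddx21 (r = 0.88, 0.87 and 0.85). For Cdkn1b they were Plcg2, Fermt3 and Traf7 (r = 0.82, 0.81 and 0.80), and Cdkn2c ran with Man1a and Mgat2 (r = 0.92 and 0.89). For Rb1 they were Gm10516, Sinhcaf and Gm20186 (r = 0.83, 0.83 and 0.80), and for the sparse Cdkn2a they were Cct6b, Foxd2os and Muc13 (r = 0.88, 0.85 and 0.85). Among the 10 genes themselves the highest value was that of Ccne1 with E2f1 (r = 0.74), and Ccnd3 with Skp2 had r = 0.60.

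Of 60 annotated transcripts of the 10 genes, 33 passed the filter on low counts and 10 of these were called by edgeR, 3 as higher and 7 as lower, beside 16.6% of all tested transcripts. Most of the called transcripts moved with their gene. Ccnd2-201, the full coding transcript with 98.5% of the counts of its gene in Control gRNA, rose by 0.33 ± 0.066 on the log2 scale (edgeR adjusted p = 0.00218). The retained-intron transcript Ccnd2-208 rose from 1.91 ± 0.610 to 3.28 ± 0.684 CPM. Cdk6-202 and the short Cdk6-205 fell, at -0.50 ± 0.12 and -0.68 ± 0.19 on the log2 scale.

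Ccnd3 held the exception. Its main coding transcript Ccnd3-215 had log2 fold change -0.62 ± 0.17 (edgeR adjusted p = 0.0194; 0.0529 with the replicate number as a block), the shorter coding transcript Ccnd3-205 -1.40 ± 0.28 (edgeR adjusted p = 0.0021), and Ccnd3-208 -1.15 ± 0.33 (edgeR adjusted p = 0.0222). Coding transcript Ccnd3-202, with the same 3′ end as Ccnd3-215, had 0 counts in 3 Control gRNA and 4 Tardbp gRNA libraries. In others it reached 242 and 205 CPM, so the division of counts between these forms was not stable. Ccnd3-218, a coding form that did not pass the filter, averaged 0.412 ± 1.16 CPM in Control gRNA and 16.1 ± 22.7 CPM in Tardbp gRNA. Ccnd3-203, annotated as a retained intron and with no coding product, rose instead. The Control gRNA libraries spanned 0.302 to 1.36 CPM and the Tardbp gRNA libraries 2.28 to 6.87 CPM, with no overlap, and its log2 fold change was 2.39 ± 0.36 (edgeR adjusted p = 0.00024). Ccnd3-203 carries a second exon of 128 bases at chr17:47575906-47576033, which Ccnd3-215 lacks, and ends in an exon of 578 bases at chr17:47578709-47579286 that runs past the 84-base second exon of Ccnd3-215. Even so it stayed a small part of the gene: its share of the Ccnd3 counts went from 0.112 ± 0.0634% to 0.898 ± 0.399% (limma adjusted p = 0.0083), far under the share difference of 0.1 that was required.

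Of the 32 transcript shares tested in these genes with limma, 8 had an unadjusted p under 0.05, 2 an adjusted p under 0.05 (both in Ccnd3) and 0 also a difference over 0.1, beside 0.63% of 32701 tested shares overall. No other tool was run on shares. The 2 forms of Cdkn1b had the largest differences in share. Its spliced transcript Cdkn1b-201 made up 53.4 ± 9.56% of the counts in Control gRNA and 65.9 ± 7.20% in Tardbp gRNA, and Cdkn1b-202, which keeps the last intron of 2159 bases (chr6:134922084-134924242), 46.5 ± 9.16% and 33.4 ± 7.25% (limma adjusted p = 0.097 for both). The splicing table measured the same intron independently of the transcript counts but from the same reads. Its percent spliced in (Psi, the fraction of transcripts that include a stretch) was 0.301 in Control gRNA and 0.192 in Tardbp gRNA, with a posterior probability of a difference of 0.721, under the 0.9 required.

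Splicing was given for 99 nodes, the stretches between splice sites or ends, in 9 of the 10 genes, and Cdkn2a had none. Psi was deposited as 1 value per group with a posterior probability of a difference, so it has no spread between libraries and was not tested. No node of these genes passed the 2 thresholds together, a Psi difference over 0.1 and a probability over 0.9, beside 0.473% of 125520 nodes. Of the 99, 6 had a difference over 0.1 and 2 a probability over 0.9. Over all 125520 nodes, 926 had a probability over 0.9, and the number with a difference over 0.1 alone was not counted. The 6 were in Ccnd2, Ccnd3, Cdkn1b and E2f1, led by a 19-base extension of the Ccnd3 second exon (chr17:47578774-47578792), whose Psi was 0.808 in Control gRNA and 0.484 in Tardbp gRNA at a probability of 0.789. The 2 with a high probability were the 2 tandem 3′ ends of Skp2, which are alternatives to each other and so not 2 separate events.

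Skp2 is copied from the minus strand and had 13 nodes. Its 8 core exons were included throughout, at Psi 0.981 to 0.993 in both groups. The proximal 3′ end (node 13, chr15:9113302-9113867) went from Psi 0.0842 to 0.0163 at a probability of 0.931, and the distal 3′ end (node 14, chr15:9111985-9113301) from 0.916 to 0.984 at a probability of 0.907. Both differences were under 0.1. By the Psi levels themselves, Skp2 mRNA used mainly its distal end in each group. Over all 12425 tandem 3′ end nodes, 3.07% had a probability over 0.9. The study names Skp2 among genes with splice events that it found to depend on costimulation and on Tardbp. Its supplement describes that list with a Psi difference of 0.05, and its figure legend gives 0.1. A cutoff of 0.05 lets both 3′ ends of Skp2 pass here, and the share over all nodes at that cutoff was not counted.

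**Figure D4:**
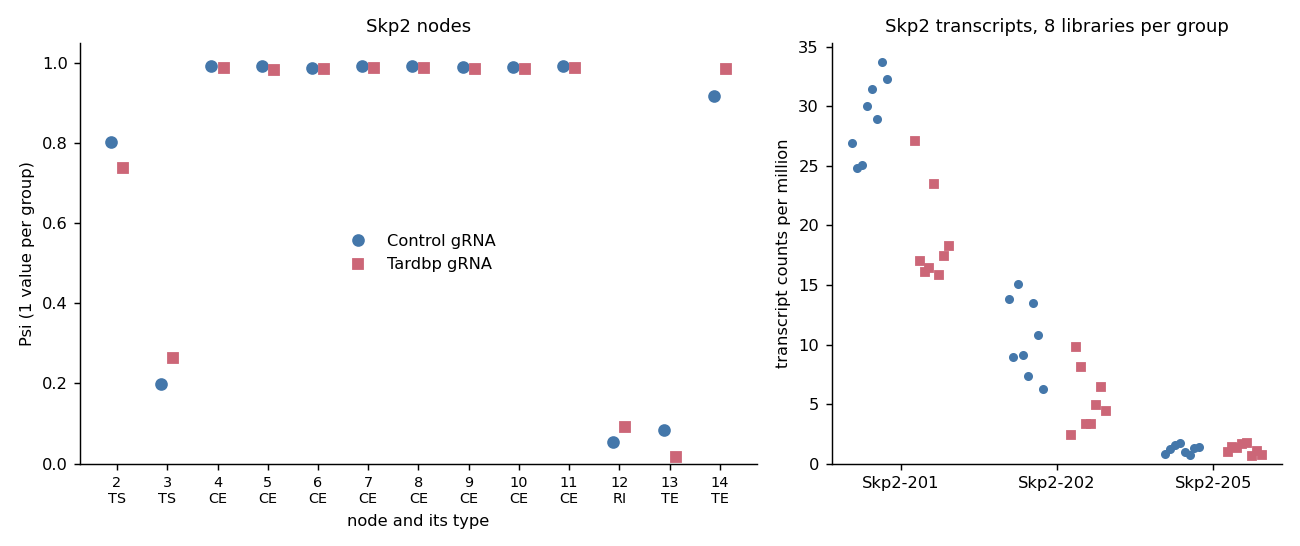
Left, Psi of the 13 Skp2 nodes (vertical axis, 0 to 1; 1 value per group; horizontal axis, node number and type, where TS is a tandem start, CE a core exon, RI a retained intron and TE a tandem end). Right, levels in CPM of 3 Skp2 transcripts in the 8 libraries of each group: the core exons sit near 1 in both groups, nodes 13 and 14 are the 3′ ends, and Skp2-201 and Skp2-202 lie lower in most Tardbp gRNA libraries.

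The last 30 annotated bases of the 2 Skp2 ends are shown because they differ in the signal that directs cleavage. They are read from the GENCODE transcripts Skp2-201 (distal, chr15:9111985-9112014, mm10) and Skp2-203 (proximal, chr15:9113302-9113331), 5′ to 3′ on the minus strand, with a poly(A) signal hexamer in capitals where one is present.
Skp2-201: tttaaAATAAAtacatttttataagaacaa
Skp2-203: cccaagttttaaaaattacccgtggctaac
The distal end holds AATAAA beginning 25 bases from its end, and the proximal end holds neither AATAAA nor ATTAAA. Of 48040 coding transcripts with an annotated end, 43.2% hold AATAAA and 11.8% hold ATTAAA in the same window. TDP-43 is known to bind runs of GU. The hexamer GTGTGT, searched on the transcribed strand, was found 0 times in the 1883-base last exon of Skp2-201 and 2 times in the 2993-base intron before it, while 54.9% of 14846 coding genes hold it in a 3′ stretch of the same length. Overlapping matches were counted, so the 2 in the intron may lie in the same run, and no share was computed for introns. These matches describe the letters only.

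The Skp2 transcript counts showed both main forms lower. Skp2-201, which is fully spliced, ran from 24.8 to 33.7 CPM (Control gRNA) and from 15.9 to 27.1 CPM (Tardbp gRNA; log2 fold change -0.62 ± 0.12, edgeR adjusted p = 0.00191). Skp2-202, which keeps the last intron, ran from 6.25 to 15.1 CPM and from 2.41 to 9.79 CPM (log2 fold change -0.99 ± 0.29, edgeR adjusted p = 0.0249). The shares of the gene moved little: Skp2-202 held 25.8 ± 7.24% in Control gRNA and 21.1 ± 9.39% in Tardbp gRNA (limma adjusted p = 0.641). The retained-intron form Skp2-205 was at 1.21 ± 0.345 and 1.19 ± 0.401 CPM and did not pass.

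The 2 kinds of table did not match on every feature of Skp2. Skp2-203, the annotated transcript with the proximal end, had 0 estimated counts in all 16 libraries, although the proximal node had a Psi above 0, so its use could not be rebuilt per library. The last intron had Psi 0.0541 in Control gRNA and 0.0909 in Tardbp gRNA (probability 0.695), far under the share of Skp2-202, and with the opposite order of the groups. The more upstream of the 2 starts listed as nodes (node 2) had Psi 0.802 and 0.736 at a probability of 0.628. The intron and that start are both features of Skp2-202, and the transcript counts cannot tell them apart.

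The other genes of the pathway were read from 5 lists of 52 genes, all of which were tested. Of these, 41 passed, 6 as higher and 35 as lower, beside 46.7% of all tested genes called, 23.5% higher and 23.3% lower, with a median log2 fold change of -0.37. Among G1 cyclins and kinases 1 of 10 rose and 6 fell. The 4 with the smallest p were Ccne2, the gene of cyclin E2, at -0.63 ± 0.078 on the log2 scale, Ccna2 at -0.41 ± 0.071, Cdk2 at -0.47 ± 0.049 and Cdk4 at -0.16 ± 0.036. Ccna2 and Cdk4 lost the call among the libraries numbered 1 to 3 (edgeR adjusted p = 0.119 and 0.197) and with RNA concentration as a covariate (0.069 and 0.353), and scaled by library totals alone Cdk4 was at -0.086. Ccne2 fell from 163 ± 21.7 to 106 ± 10.2 CPM with no overlap, unlike Ccne1. Cdk4 fell far less than its relative Cdk6, though the difference between the 2 genes was not tested.

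Among the other inhibitors 2 of 5 rose and 0 fell, a count near the 46.7% of all tested genes called. Cdkn2d, which encodes the Ink4 inhibitor p19Ink4d, rose from 145 ± 12.8 to 187 ± 13.4 CPM (0.37 ± 0.056 on the log2 scale), and Cdkn3, which encodes a phosphatase of Cdk2, from 55.5 ± 6.73 to 66.1 ± 3.74 CPM (0.25 ± 0.067). Both lost the call among the libraries numbered 1 to 3 and with RNA concentration as a covariate. Cdkn1a, the gene of p21, was at 8.06 ± 2.42 and 9.33 ± 1.78 CPM and Cdkn2b at 0.850 ± 0.458 and 0.653 ± 0.172 CPM, and neither passed.

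The partners of Skp2 did not move as one. The scaffold gene Cul1 fell by 0.41 ± 0.047 on the log2 scale but did not pass among the libraries numbered 1 to 3 (edgeR adjusted p = 0.0646), and the RING subunit gene Rbx1 rose by 0.18 ± 0.047. Skp1a, the adaptor, and Cks1b, the cofactor that Skp2 needs to recognise p27, were at 341 ± 19.3 and 322 ± 21.4 CPM in Control gRNA and at 344 ± 28.1 and 331 ± 6.00 CPM in Tardbp gRNA, and neither passed. Fbxw7, the F-box protein that targets cyclin E, rose by 0.31 ± 0.072 but did not pass within either set of library numbers. Neither Rbx1 nor Fbxw7 was called as higher among the libraries numbered 1 to 3 or with RNA concentration as a covariate. Fbxo5, an inhibitor of the ligase APC/C, and the deubiquitinase gene Usp37 fell, at -0.32 ± 0.038 and -0.50 ± 0.070. In all 2 of 8 rose and 4 fell, beside 23.5% of all tested genes called higher and 23.3% lower. Rbx1, Skp1a and Cks1b lie outside the rule for named genes and were chosen as subunits after their values were seen.

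Of the E2F, DP and pocket protein genes 1 of 11 rose and 7 fell, beside 23.5% of all tested genes called higher and 23.3% lower. E2f8, an atypical repressor, fell most among the 4 named, from 94.8 ± 7.90 to 53.2 ± 9.80 CPM (-0.84 ± 0.098 on the log2 scale). E2f3 fell by 0.50 ± 0.099, the dimer partner gene Tfdp1 by 0.53 ± 0.059 and the pocket protein gene Rbl2 by 0.45 ± 0.074. Among the libraries numbered 1 to 3 E2f3 and Rbl2 lost the call (edgeR adjusted p = 0.26 and 0.119), as did E2f3 with RNA concentration as a covariate (0.32). Rb1 and E2f1, which did not pass, thus had 3 relatives in this list without a call.

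All 18 E2F target genes of S phase fell, and for all 18 the groups did not overlap, beside 23.3% of all genes called lower and 16.9% without overlap. Their median log2 fold change was -0.64, with Mcm5 at -0.76 ± 0.057, Mcm3 at -0.64 ± 0.048, Rrm2 at -0.63 ± 0.047 and Mcm6 at -0.60 ± 0.041. Mcm6 went from 1365 ± 45.9 to 900 ± 64.8 CPM. The list was drawn up with earlier results of these data known, so its direction is not independent evidence.

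**Figure D5:**
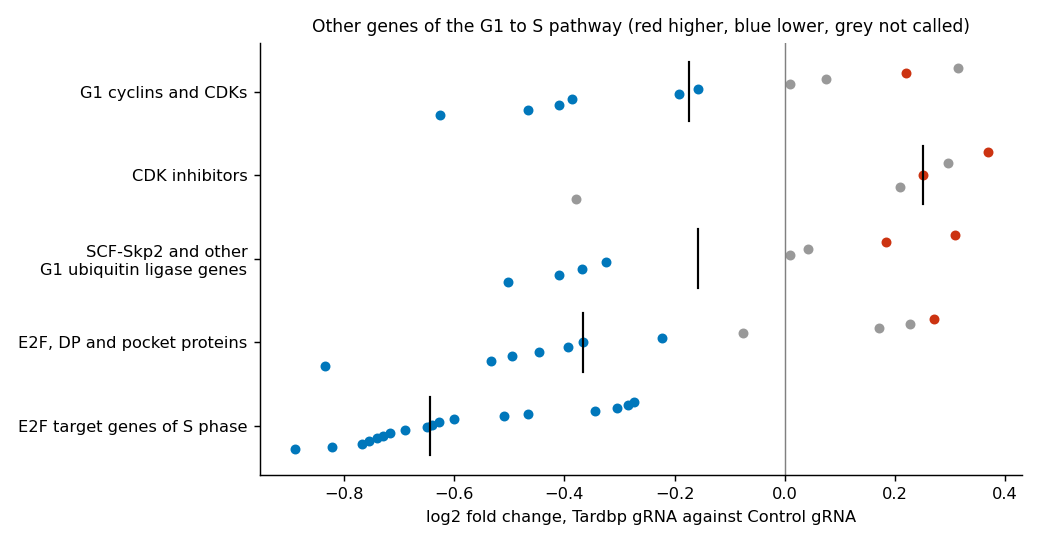
Log2 fold change (horizontal axis) of 52 other genes of the G1 to S pathway in 5 lists; each point is a gene, red higher, blue lower and grey not called by edgeR, and the black bar is the median of its list. All 18 E2F target genes lie to the left of 0, while the CDK inhibitors lie mostly to the right.

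Promoters were searched for an E2F-type motif, the letters TTTCCCGC, TTTCGCGC, TTTGCCGC or TTTGGCGC on either strand, in RefSeq windows (GRCm38) of 250 bases before to 50 after each gene start. The letters are given because the target genes moved together. Of the 10 G1 genes 8 had a window, and 1 of the 8, Cdkn2a, held a match, whereas 8 of 16 E2F target genes with a window did, beside 2.6% of all 27025 genes. The match lay in the window around the start of Cdkn2a-202, and the window at the start of Cdkn2a-201 held none. The 8 include E2f1 and Cdkn2c, whose windows missed the annotated starts of main transcripts, as given below, so the counts are not like for like. The target genes were listed because they are known E2F targets, so their higher share is not independent evidence. A single site is printed for each of Cdkn2a (chr4:89294700-89294729, minus strand), Mcm3 (chr1:20820275-20820304, minus strand), Mcm5 (chr8:75109345-75109374, plus strand) and Mcm6 (chr1:128359797-128359826, minus strand). The lines run 5′ to 3′ on the strand of the gene, with that motif or its reverse complement in capitals. Mcm3, Mcm5 and Mcm6 held further matches. In the Mcm5 and Mcm6 lines a further match overlaps the capitals and stands partly in lower case.
Cdkn2a: ctctgggaagcTTTCCCGCgcgactgggga
Mcm3: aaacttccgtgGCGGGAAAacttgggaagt
Mcm5: gcgccaagaacTTTCGCGCcaaaacgtcca
Mcm6: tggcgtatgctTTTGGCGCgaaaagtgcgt
Skp2, Ccnd3, Ccne1, Cdk6, Cdkn1b, Cdkn2c and E2f1 had none of these letters in their windows. The E2f1 window (chr2:154569377-154569676) lay wholly downstream of the GENCODE starts of its transcripts, 154569720 and 154569892, so bases before them were not searched. A Cdkn2c window (chr4:109666707-109667006) likewise lay downstream of the start of Cdkn2c-202 (109667189), which held 95.7% of the Control gRNA counts. The other Cdkn2c window was at the start of Cdkn2c-201. A match is not a bound site, and its absence says only that these letters are not in the window.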

How the data were processed

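RNA of sorted CD8+ T cells was read in 16 libraries (8 Control gRNA, 8 Tardbp gRNA; SMART-Seq v4, Nextera XT, paired reads, 12 PCR cycles). Per the submitters' processing notes, HISAT2 2.1.0, SAMtools 1.9, StringTie 2.1.0 and mm10 were used. The authors deposited estimated counts per gene and per transcript from StringTie, whole numbers and not normalised, with GENCODE M21 names; from these counts all fold changes were computed here. With Whippet, started from raw reads, the authors made and deposited Psi as a fraction for each group of 8 together with a posterior probability, also a fraction; their Psi difference was recomputed here, and the columns of their comparison were otherwise not used. Counting is not stated to use strand. A further 10 columns per count file matched no sample and were not used. The 26345 rows of unannotated loci, 0.0836% to 0.132% of counts per library, were left out.

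Genes and transcripts were filtered (edgeR 4.0.16 filterByExpr, minimum count 10, total 15, proportion 0.7), scaled by TMM and tested by the quasi-likelihood test in R 4.3.3, with Benjamini-Hochberg adjustment over all tested features and a threshold of 0.05. Transcript shares were tested with limma 3.58.1 (adjusted p under 0.05, difference over 0.1). SE is the log2 fold change over the root of F; 95% intervals use 14 degrees of freedom. Log2 CPM used a prior count of 2. The exact permutation test enumerated all splits. DESeq2 1.42.0, other scalings, filters, covariates, thresholds and omissions of each library were alternatives. The scripts were tested on simulated data with known changes.

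Named genes are the 10 G1 genes, Tardbp, up to 4 genes with the smallest p from each list, and the 3 closest in pattern, of which 1 is not reported here; Mnat1, Cdk7, Ccnh, Ccnd1, Rbx1, E2f6, Skp1a and Cks1b were added after their values were seen. The members and lists were chosen with earlier results of these data known. Replicate numbers do not pair the samples. Precision covers the spread between these libraries, and counting limits cover counting error only.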

Additional observations from a re-analysis of the deposited data

Results flagged for a closer look

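In 76 groups of 8 libraries (depth, each named gene, transcripts of Skp2 and Cdkn1b, and ratios), 1 library stood far from the rest in 2, where chance alone would give about 3.8. Cdkn2c was at 25.7 CPM in the library Control gRNA 3, below the other Control gRNA libraries at 32.8 to 38.1 CPM. Without that library the log2 difference of Cdkn2c was 0.19 (edgeR adjusted p = 0.094). Tardbp itself was at 110 CPM in the library Tardbp gRNA 3, below the other Tardbp gRNA libraries at 129.8 to 147 CPM. That library also had the highest E2f1 level of its group, at 16.9 CPM.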

How the results depend on the processing

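The calls of Ccnd3 and Skp2 held under every alternative except a required log2 fold change over 1 in size, and that of Ccnd2 also failed among libraries 1 to 3 alone (0.35, adjusted p = 0.107 in edgeR), where Cdk6 failed too (-0.36, adjusted p = 0.317 in edgeR). Among libraries 1 to 3 alone 1696 genes, 2 of the 10 and 20 of the 52 pathway genes passed, these 20 all as lower. With RNA concentration as a covariate 2697 genes and 27 pathway genes passed, these 27 all as lower. A required log2 fold change over 1 in size left 1001 genes and 0 of the 10, 0 of the pathway genes and 0 of the 18 E2F targets. Scaling by library totals alone called 4881 genes higher and 3135 lower, against 3906 and 3877, with a median log2 fold change of 0.12. Leaving out 1 library at a time gave 7265 to 7734 genes, 4 to 5 of the 10 and 39 to 41 pathway genes. The log2 difference of E2f1 was -0.063 among libraries 4 to 8 and -0.090 to 0.19 on leaving out 1 library, and that of Cdkn2b 0.59 among libraries 1 to 3. Too few Cdkn2a counts were left among libraries 4 to 8 for a test. A Psi difference over 0.05 in size let 2 Skp2 nodes pass. Skp2-202 missed the threshold with no filter (-0.98, adjusted p = 0.0561 in edgeR). The causes were not tested.

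The replicate number as a block gave 7645 genes, 4 of the 10 and 41 pathway genes, but 6 transcripts of the 10 genes against 10, without Ccnd3-215 (-0.64, adjusted p = 0.0529 in edgeR). Samples with the same number correlated at -0.0048 to 0.16, so the numbers did not pair them, and 2 of 8 correlated best with their own number. A limma test of Psi, alone or with the block, was not run, since Psi came as 1 value per group.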

Other observations

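The 6 pathway genes that rose were Mnat1, Cdkn2d, Cdkn3, Rbx1, Fbxw7 and E2f6. None of the 6 was called as higher among the libraries numbered 1 to 3, nor with RNA concentration as a covariate. In each of these fits 0 pathway genes were higher. Mnat1, a subunit of the kinase complex that activates Cdk2 and Cdk4, rose by 0.22 ± 0.068 on the log2 scale, while its partners Cdk7 and Ccnh were at 72.7 ± 4.76 and 83.2 ± 5.12 CPM in Control gRNA and at 73.2 ± 4.38 and 87.7 ± 4.12 CPM in Tardbp gRNA and did not pass the test. E2f6, a repressor that needs no pocket protein, rose by 0.27 ± 0.089. Ccnd1, the D cyclin of many non-lymphoid tissues, was nearly absent, at 0.317 ± 0.164 CPM in Control gRNA and 0.394 ± 0.219 CPM in Tardbp gRNA.

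The deposited sample sheet gives a sex for each library. The interaction of sex with the group, added after the data were seen, was called by edgeR for 0 of the 10 G1 genes, and 0 had an unadjusted p under 0.05. The smallest unadjusted p among the 10 was 0.0672, for Ccne1. No other tool was run on it.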
